A study of Mus musculus with 6 samples.

Results

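Cells make cholesterol and fatty acids from acetyl-CoA, and the genes of both routes are targets of the sterol regulatory element-binding proteins (SREBPs). Members of these routes were compared between irinotecan-treated and DMSO-treated CT26 cells. The 37 members were taken from the deposited gene table by gene symbol, out of 11604 genes. They comprise 19 genes of the sterol branch, 12 genes of the fatty acid branch, and 6 genes grouped as SREBP regulators (Srebf1, Srebf2, Scap, Insig1, Insig2 and the sterol carrier Stard4). The members are named by symbol and not by a threshold on values, though earlier results of these data were known when they were chosen. All 37 were listed and tested.

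CT26 cells, labelled wild type for genotype, come from a colon carcinoma of a BALB/c mouse. Irinotecan (CPT-11) is a prodrug of SN-38, which inhibits DNA topoisomerase I. RNA was sequenced from 3 samples exposed to 10 µM irinotecan for 24 h and from 3 samples given DMSO, the solvent. The labels give 3 libraries per group where the design text of the series speaks of duplicates, and all 6 were used. Nothing in the labels shows that libraries of a group came from separate cultures, so the p-values reflect a spread among libraries that may be technical.

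SREBP precursors sit in the endoplasmic reticulum bound to SCAP, an escort protein that senses sterols. When sterols are plentiful, INSIG proteins hold the SCAP and SREBP complex in place. When sterols fall, the complex moves to the Golgi, where proteases release the transcription factor domain. SREBP2, from Srebf2, acts mainly on the sterol branch, and SREBP1, from Srebf1, mainly on the fatty acid branch. Insig1 is itself a well-known SREBP target, so its protein closes a feedback loop. The released factors bind sterol regulatory elements (SREs) together with the CCAAT-binding factor NF-Y or with Sp1, which binds GC boxes.

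The upstream sequences of 5 members are shown to set some of the genes that rose beside the gene of an SREBP itself. All 5 hold CCAAT and GC boxes, the letters of the partner factors, and of the 5 Hmgcs1 alone holds the SRE letters searched. The choice leaves out other genes that rose, among them Acat2, which holds no CCAAT match. CCAAT and GC boxes were present in 43.7% and 69.9% of the genes of the table that had a promoter window. Insig1, Hmgcs1, Idi1 and Acss2 rose with irinotecan, and Srebf2 did not pass the test. Each is the 250 bases before the RefSeq gene start on GRCm38.p6, written 5′ to 3′ on the gene's strand, which is the plus strand for all 5. Capitals mark the SRE letters TCACNCCAC and the CCAAT box, which reads ATTGG where it lies on the other strand. The windows are chr5:28071162-28071411 for Insig1, chr13:119690101-119690350 for Hmgcs1, chr13:8885356-8885605 for Idi1, chr2:155517793-155518042 for Acss2 and chr15:82147019-82147268 for Srebf2.
Insig1: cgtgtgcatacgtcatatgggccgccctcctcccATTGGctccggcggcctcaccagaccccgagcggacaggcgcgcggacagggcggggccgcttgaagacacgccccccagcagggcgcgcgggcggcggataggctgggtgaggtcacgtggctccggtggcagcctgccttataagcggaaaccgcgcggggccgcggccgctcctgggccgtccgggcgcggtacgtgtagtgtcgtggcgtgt
Hmgcs1: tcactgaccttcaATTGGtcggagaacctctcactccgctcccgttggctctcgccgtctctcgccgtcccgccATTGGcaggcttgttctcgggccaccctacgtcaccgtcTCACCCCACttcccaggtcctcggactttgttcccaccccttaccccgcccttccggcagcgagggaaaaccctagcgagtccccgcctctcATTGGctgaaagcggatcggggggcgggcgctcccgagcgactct
Idi1: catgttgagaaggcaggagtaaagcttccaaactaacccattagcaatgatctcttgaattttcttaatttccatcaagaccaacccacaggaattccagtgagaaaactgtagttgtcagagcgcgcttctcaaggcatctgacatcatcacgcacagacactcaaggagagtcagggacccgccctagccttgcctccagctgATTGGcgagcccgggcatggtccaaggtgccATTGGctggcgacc
Acss2: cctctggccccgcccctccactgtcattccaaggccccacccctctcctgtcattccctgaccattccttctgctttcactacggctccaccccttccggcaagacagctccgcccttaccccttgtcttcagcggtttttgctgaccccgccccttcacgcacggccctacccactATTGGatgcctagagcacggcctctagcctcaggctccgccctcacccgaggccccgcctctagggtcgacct
Srebf2: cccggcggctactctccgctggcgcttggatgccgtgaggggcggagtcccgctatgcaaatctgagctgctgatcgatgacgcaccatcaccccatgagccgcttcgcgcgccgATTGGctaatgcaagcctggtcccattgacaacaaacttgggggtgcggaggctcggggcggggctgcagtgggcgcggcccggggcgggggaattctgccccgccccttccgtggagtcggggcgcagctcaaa

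RefSeq windows from 250 bases before to 50 bases after the start were matched for 30 of the 37 members, 16 of the sterol branch, 9 of the fatty acid branch and 5 of the regulators. Motifs were searched on both strands, and motifs of different kinds overlapped in 1 window, of Elovl1. A CCAAT match was present in 15 of 16 sterol members, all except Acat2, in 6 of 9 fatty acid members and in 4 of 5 regulators, against 43.7% of the 9044 genes of the table that had a window. By the outcome of the test, it was present in 7 of the 8 members that rose and in 18 of the 22 others. The letters GGGCGG, the GC box, were present in 14 of 16 sterol members, 5 of 9 fatty acid members and 5 of 5 regulators, against 69.9% of the listed genes. The letters CACGTG, an E-box that SREBPs can also bind, were present in 3 of 16, 1 of 9 and 2 of 5, against 11.97%. The letters TCACNCCAC were found in 1 of the 30 members, Hmgcs1, at position -137 from its start, against 1.39% of the listed genes. These are matches of letters in a fixed window and show neither binding nor its absence.

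The libraries held 17049072 to 17294496 counts with irinotecan and 16052326 to 16649571 counts with DMSO. Of 11599 genes tested, 1369 were higher with irinotecan and 1190 lower at an adjusted p under 0.05 by the edgeR quasi-likelihood test with Benjamini-Hochberg adjustment over all genes, and the same adjustment stands behind every adjusted p given for a gene. With total counts as the one scaling factor, 66.1% of the calls were higher, against 53.5% here. Blood and endothelial markers were scarce. Of 9 haematopoietic markers only Cd68 was listed, at 3.72 to 4.23 CPM (counts scaled to the normalized library size) with irinotecan and 2.01 to 3.07 CPM with DMSO, of 4 endothelial markers 0 were listed, and of 9 epithelial markers 3 were listed (Cdh17, Krt18 and Krt20), summing to 87.3 to 98.6 CPM with irinotecan and 96.5 to 103 CPM with DMSO. All 5 mesenchymal markers were listed and summed to 5809 to 6197 CPM with irinotecan and 5066 to 5134 CPM with DMSO. Among these markers Cdh17 (log2 fold change 1.402, adjusted p = 0.0047), Cd68 (0.76, 0.018), Vim (0.31, 0.00062) and Col1a1 (0.47, 2.3e-07) were higher with irinotecan and Krt18 (-0.23, 0.025) was lower. Their part in the results was not tested. In RNA from whole cultures, fewer cells expressing a gene and less RNA per cell cannot be told apart.

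Of the 37 members, 8 rose with irinotecan, 0 fell and 29 did not pass the test. Over all genes tested 22.1% were called, 11.8% higher and 10.3% lower. The genes that rose were Insig1 among the regulators, Acat2, Hmgcs1, Idi1, Tm7sf2 and Hsd17b7 in the sterol branch, and Acss2 and Acly in the fatty acid branch. The rises lay between 0.15 and 0.57 on the log2 scale. Of these calls, those of Insig1, Acss2 and Tm7sf2 held in all 13 alternative fits. At an unadjusted p under 0.05, 12 members were higher and 1 lower. That is 13 of 37 members, beside 3943 of 11599 genes tested, a similar share. DESeq2 and limma-voom each called 7 members higher and 0 lower. Among all genes DESeq2 called 1134 higher and 1095 lower, and limma-voom 1351 higher and 1186 lower. The fold changes were positive for 30 of 37 members, against 50.04% of all genes tested, and their median was 0.11, against 3e-04 over all genes.

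**Figure D1:**
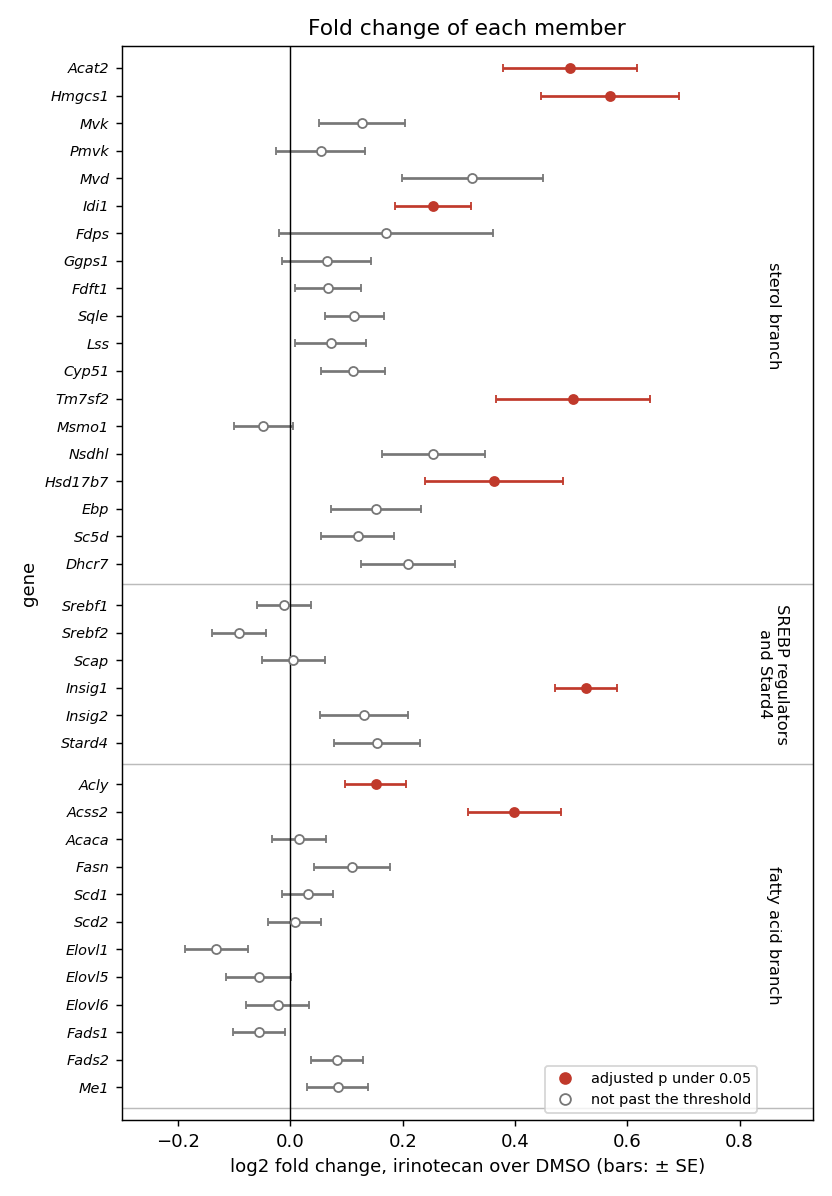
Log2 fold change of each of the 37 members, irinotecan over DMSO, with its standard error as the bar, from the edgeR fit over 3 libraries per group. Filled red points are the 8 members at an adjusted p under 0.05 and open points are the other 29. All 8 red points lie right of 0, and the Insig1 bar is short beside those of Hmgcs1, Acat2 and Tm7sf2.

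Among the regulators Insig1 was the 1 gene that rose, while the genes for both SREBPs and for SCAP did not pass the test. Insig1 (ENSMUSG00000045294, chromosome 5, 28276361 to 28283660 on GRCm39) had 190.2, 167 and 169 CPM in the 3 irinotecan libraries, against 123, 118 and 124 CPM in the 3 DMSO libraries. Every irinotecan library lay above every DMSO library. The mean was 175 ± 12.9 CPM with irinotecan and 122 ± 2.95 CPM with DMSO (SD, n = 3 each), a log2 fold change of 0.53 ± 0.06 (SE), or 1.44-fold, with an adjusted p of 4.9e-07. Over the 13 alternative fits the adjusted p ranged from 2.6e-14 to 1.6e-05. Insig2, the other INSIG gene, had 47.8, 44.1 and 47.0 CPM with irinotecan and 42.8, 37.3 and 46.8 CPM with DMSO. The groups of Insig2 overlapped (log2 fold change 0.13, adjusted p = 0.25). Per length, on the deposited FPKM scale (fragments scaled by gene length and library size), the level of Insig1 over that of Insig2 was 4.47, 4.25 and 4.04 with irinotecan and 3.23, 3.57 and 2.97 with DMSO, without overlap.

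Srebf2 had 458, 421 and 443 CPM with irinotecan and 479, 476 and 453 CPM with DMSO. Irinotecan 1 lay above DMSO 3, so the groups overlapped, and the log2 fold change was -0.09 (95% interval -0.19 to 0.01, adjusted p = 0.18). Srebf1 had 276, 282 and 271 CPM with irinotecan and 283, 289 and 264 CPM with DMSO, with a log2 fold change of -0.01 (-0.11 to 0.09, adjusted p = 0.89). Scap had 101, 102 and 99.2 CPM with irinotecan and 102, 105 and 94.1 CPM with DMSO, with a log2 fold change of 0.01 (-0.11 to 0.12, adjusted p = 0.96). The 95% intervals of these 3 genes together ran from -0.19 to 0.12 on the log2 scale. Stard4, a cytosolic sterol transfer protein and SREBP target, had 133, 110 and 115 CPM with irinotecan and 117, 95.2 and 111 CPM with DMSO (log2 fold change 0.15, adjusted p = 0.17). By level per length, Srebf2 stood above Srebf1 in both groups, by a factor of 1.252 ± 0.07 with irinotecan and 1.32 ± 0.03 with DMSO (SD, n = 3 each).

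**Figure D2:**
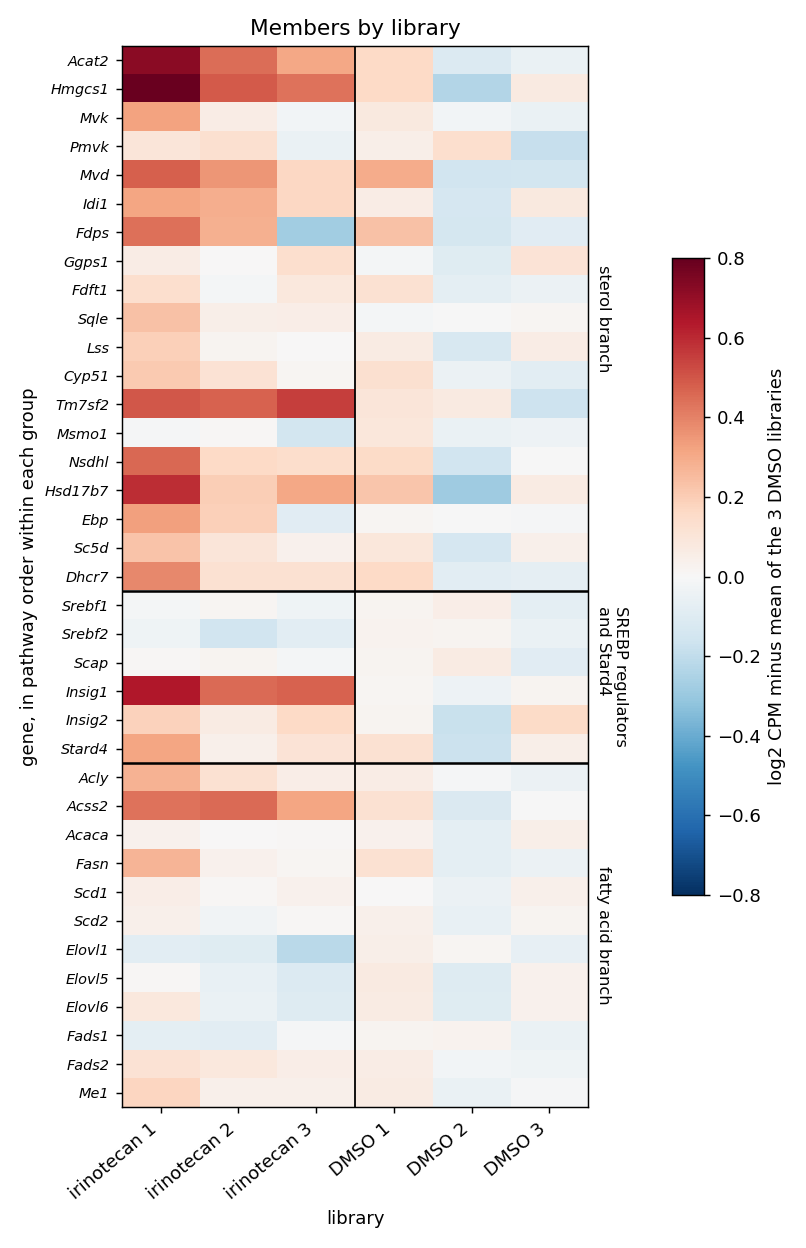
Log2 CPM of each member in each of the 6 libraries minus its mean over the DMSO libraries, irinotecan libraries on the left. Rows are genes in pathway order and red stands for a higher level. Insig1 is red in all 3 irinotecan libraries, and irinotecan 1 holds the highest irinotecan value in 15 of the 19 sterol rows.

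In the sterol branch 5 of 19 genes rose, 0 fell and 14 did not pass the test, the log2 fold changes ranging from -0.05 to 0.57 around a median of 0.15. The share higher over all genes tested was 11.8%. The fold change was positive for 18 of the 19, and for 17 or 18 of them in every alternative fit, scalings included. The 5 genes that rose lie at the entry to the pathway (Acat2 and Hmgcs1), at the isomerase step (Idi1), and among the late sterol enzymes (Tm7sf2 and Hsd17b7). The 8 genes up to the prenyl pyrophosphates had 3 rises and a median of 0.21, and the 11 genes after them had 2 rises and a median of 0.12.

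Hmgcs1 (chromosome 13, 120151915 to 120169796), the cytosolic HMG-CoA synthase, had 134, 109 and 105 CPM with irinotecan and 86.9, 66.3 and 82.0 CPM with DMSO. The lowest irinotecan library was above the highest DMSO library, with means of 116 ± 15.8 and 78.4 ± 10.8 CPM (irinotecan and DMSO, SD, n = 3 each). The log2 fold change was 0.57 ± 0.12 (adjusted p = 0.015). Without DMSO replicate 3 it missed the threshold (0.094). Of the Hmgcs1 transcript, 16.2% matched the antisense gene Gm48342 at 97% identity or more, and whether counting used strand is not given. Acat2, the cytosolic thiolase that makes acetoacetyl-CoA for this route, had 209, 172 and 156 CPM with irinotecan and 141, 117 and 122 CPM with DMSO. These groups too were separate (log2 fold change 0.50 ± 0.12, adjusted p = 0.026), but the gene missed the threshold without DMSO replicate 2 (0.11) or DMSO replicate 3 (0.16). Acat2 is uncertain as a gene because 65.6% of its transcript matched other genes at 97% identity or more, chiefly Acat3, which was not analysed here.

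Idi1 (chromosome 13, 8935537 to 8942487), which converts isopentenyl to dimethylallyl pyrophosphate, had 72.2, 71.0 and 65.1 CPM with irinotecan and 60.4, 52.9 and 61.3 CPM with DMSO. The groups were separate by a small gap (log2 fold change 0.25 ± 0.07, adjusted p = 0.01), and it missed the threshold without irinotecan replicate 1 (0.065) or DMSO replicate 2 (0.07). Of its transcript, 33.3% matched other genes at 97% identity or more. Tm7sf2 (chromosome 19, 6112851 to 6118403), a sterol reductase that acts after lanosterol demethylation, had 8.97, 8.83 and 9.32 CPM with irinotecan and 6.78, 6.69 and 5.65 CPM with DMSO. It was the least abundant member by CPM after Fdps, yet its groups were well apart (log2 fold change 0.50 ± 0.14, adjusted p = 0.012, at most 0.049 over 13 alternatives). Tm7sf2 shares 532 bases with Vps51 on the same strand, and Vps51 had a log2 fold change of -0.17 (adjusted p = 0.18).

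Hsd17b7, the ketoreductase that acts while methyl groups are removed from the sterol ring, had 22.2, 16.9 and 18.2 CPM with irinotecan and 17.1, 12.1 and 15.4 CPM with DMSO. Its groups overlapped although it passed the test (log2 fold change 0.36 ± 0.12, adjusted p = 0.039). It missed the threshold with DESeq2 (0.056) and without irinotecan replicate 1 (0.25), irinotecan replicate 3 (0.052), DMSO replicate 2 (0.21) or DMSO replicate 3 (0.063).

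**Figure D3:**
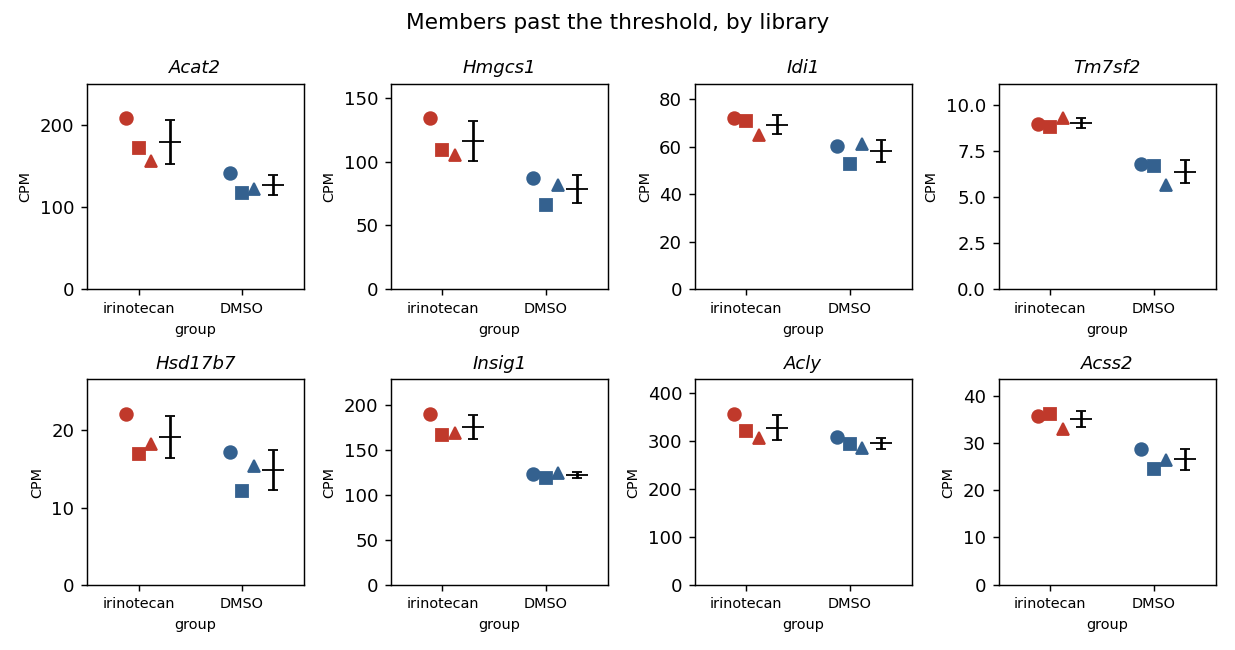
CPM in each library for the 8 members that rose, irinotecan left and DMSO right in each panel, with circle, square and triangle for replicates 1, 2 and 3 and the black bar for the group mean ± SD. The axes start at 0 and differ between panels. The groups do not overlap for Acat2, Hmgcs1, Idi1, Tm7sf2, Insig1 and Acss2, and they overlap for Hsd17b7 and Acly.

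The other mevalonate genes did not pass the test. Mvd, the decarboxylase that makes isopentenyl pyrophosphate, had 67.1, 61.7 and 54.2 CPM with irinotecan and 59.3, 43.4 and 43.5 CPM with DMSO (log2 fold change 0.32, adjusted p = 0.1). The kinases Mvk and Pmvk had log2 fold changes of 0.13 and 0.05. The synthases Fdps and Ggps1, which make farnesyl and geranylgeranyl pyrophosphate, had log2 fold changes of 0.17 and 0.06. Fdps, the lowest member by level, cannot be read with confidence, since 91.4% of its transcript matched other genes at 97% identity or more. For Ggps1 the matched share was 27.3%.

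From squalene onward, apart from Tm7sf2 and Hsd17b7, the enzymes did not pass the test. Sqle, the squalene epoxidase and a rate-limiting step of the late pathway, had 251, 221 and 221 CPM with irinotecan and 211, 213 and 216 CPM with DMSO. Its groups were separate, but it did not pass the test (log2 fold change 0.11, adjusted p = 0.13). Fdft1, the squalene synthase, Lss, the lanosterol synthase, and Cyp51, the lanosterol demethylase, had log2 fold changes of 0.07, 0.07 and 0.11. Of the Fdft1 transcript, 54.7% matched other genes at 97% identity or more. Nsdhl, which removes the carboxylated methyl group, had 111, 90.3 and 88.9 CPM with irinotecan and 89.9, 72.7 and 80.7 CPM with DMSO (log2 fold change 0.25, adjusted p = 0.065, and 0.034 in the authors' deposited table). Dhcr7, a final reductase, had a log2 fold change of 0.21 (adjusted p = 0.078), Ebp, the sterol isomerase, of 0.15, and Sc5d, the sterol desaturase, of 0.12. Msmo1, the methyl sterol oxidase between Cyp51 and Nsdhl in the route, was the 1 sterol gene below 0, with 250, 252 and 227 CPM with irinotecan and 268, 242 and 244 CPM with DMSO (log2 fold change -0.05, adjusted p = 0.57).

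In the fatty acid branch 2 of 12 genes rose, 0 fell and 10 did not pass the test, the log2 fold changes ranging from -0.13 to 0.40 around a median of 0.02. The share higher over all genes tested was 11.8%. Both rises were of enzymes that supply cytosolic acetyl-CoA, the substrate shared with the sterol branch. The call of Acss2 held in all 13 alternatives and that of Acly in 6. Acss2, which makes acetyl-CoA from acetate, had 35.8, 36.2 and 33.0 CPM with irinotecan and 28.8, 24.4 and 26.4 CPM with DMSO. Its groups were separate, with means of 35.0 ± 1.73 and 26.5 ± 2.17 CPM (irinotecan and DMSO, SD, n = 3 each), a log2 fold change of 0.40 ± 0.08 (adjusted p = 0.0015, at most 0.012 over 13 alternatives). The locus overlaps Gss on the other strand by 22544 bases, and whether counting used strand is not given. Gss had a log2 fold change of 0.14 (adjusted p = 0.21).

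Acly, which makes acetyl-CoA from citrate, had 358, 321 and 307 CPM with irinotecan and 308, 293 and 286 CPM with DMSO. The groups overlapped at their edge (log2 fold change 0.15 ± 0.05, adjusted p = 0.048). The call was lost with DESeq2 (0.072), with its size factors (0.053), with voom (0.05), and without irinotecan replicate 1 (0.33), irinotecan replicate 2 (0.08), DMSO replicate 2 (0.11) or DMSO replicate 3 (0.11).

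The enzymes that build and desaturate the chain did not pass the test. Acaca, the acetyl-CoA carboxylase that makes malonyl-CoA, had a log2 fold change of 0.02 (adjusted p = 0.86), with 64.3% of its transcript matched in other genes at 97% identity or more. Fasn, the fatty acid synthase, had 907, 772 and 761 CPM with irinotecan and 819.8, 713 and 728 CPM with DMSO (log2 fold change 0.11, adjusted p = 0.27). The stearoyl-CoA desaturases were the most abundant members, and their groups overlapped. Scd2 had 2953, 2809 and 2883 CPM with irinotecan and 2944, 2747 and 2909 CPM with DMSO, with a log2 fold change of 0.01 (95% interval -0.09 to 0.11). Scd1 had 929, 902 and 919 CPM with irinotecan and 901, 869.5 and 921 CPM with DMSO, with a log2 fold change of 0.03 (-0.06 to 0.13).

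The elongases lay below 0. Elovl1, which extends saturated very long chains, had 103, 102 and 94.2 CPM with irinotecan and 113, 111 and 105 CPM with DMSO. It was the 1 member whose irinotecan libraries all lay below its DMSO libraries, and it did not pass the test (log2 fold change -0.13, adjusted p = 0.099). Elovl5, which extends polyunsaturated chains, and Elovl6, which extends palmitate, had log2 fold changes of -0.06 and -0.02, and that of Elovl6 changed sign in 3 of 13 alternatives. The polyunsaturated fatty acid desaturases Fads1 and Fads2 had log2 fold changes of -0.06 and 0.08. Me1, the malic enzyme that supplies NADPH, had a log2 fold change of 0.08, with 60.1% of its transcript matched in other genes at 97% identity or more.

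Levels per length ran over a wide range. Scd2 was highest at 532 ± 13.4 FPKM with irinotecan and 519 ± 23.6 FPKM with DMSO, followed by Scd1 at 189 ± 2.86 and 181 ± 7.05 FPKM. Fads1, at 95.8 FPKM with irinotecan and 97.5 FPKM with DMSO, and Cyp51, at 94.4 ± 6.25 and 85.6 ± 7.02 FPKM, came next and did not differ beyond their spread with irinotecan. At the bottom stood Acss2 at 3.47 and 2.58 FPKM, Tm7sf2 at 2.07 and 1.43 FPKM and Fdps at 1.32 and 1.15 FPKM, irinotecan before DMSO. Of the members that rose, Acly and Acat2 stood highest, at 62.8 and 71.0 FPKM with irinotecan and 55.3 and 49.2 FPKM with DMSO. In both groups they stood below Scd2, Scd1, Fads1, Cyp51, Fads2 and Fasn. Srebf2 stood above them with DMSO, at 64.6 FPKM, and below them with irinotecan, at 61.9 FPKM. Summed FPKM of the sterol branch were 577, 518 and 486 with irinotecan and 487, 425 and 442 with DMSO, and those of the fatty acid branch were 1213, 1151 and 1164 with irinotecan and 1172, 1087 and 1147 with DMSO, overlapping in both.

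The branches were compared within each library by the mean log2 CPM of their genes, each gene set to 0 at its DMSO mean. These means describe the libraries and carry no test. The sterol mean was 0.34, 0.18 and 0.10 in irinotecan libraries 1, 2 and 3 and 0.11, -0.09 and -0.03 in DMSO libraries 1, 2 and 3, and irinotecan 3 lay below DMSO 1. The fatty acid mean was 0.11, 0.03 and 0.01 with irinotecan and 0.06, -0.05 and -0.01 with DMSO, overlapping as well. The difference, sterol minus fatty acid, was 0.23, 0.15 and 0.09 with irinotecan and 0.05, -0.03 and -0.02 with DMSO, without overlap. Its mean was 0.16 ± 0.07 with irinotecan and 0 ± 0.05 with DMSO (SD, n = 3 each). How far this difference rested on the 5 sterol genes that rose was not computed. The regulator mean was 0.18, 0.08 and 0.10 with irinotecan and 0.04, -0.04 and 7e-04 with DMSO, also without overlap. That separation rested on Insig1. Over the 5 regulators other than Insig1, a mean computed after seeing the data, the values were 0.09, -8e-04 and 0.03 with irinotecan and 0.04, -0.04 and -0.004 with DMSO, which overlap.

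**Figure D4:**
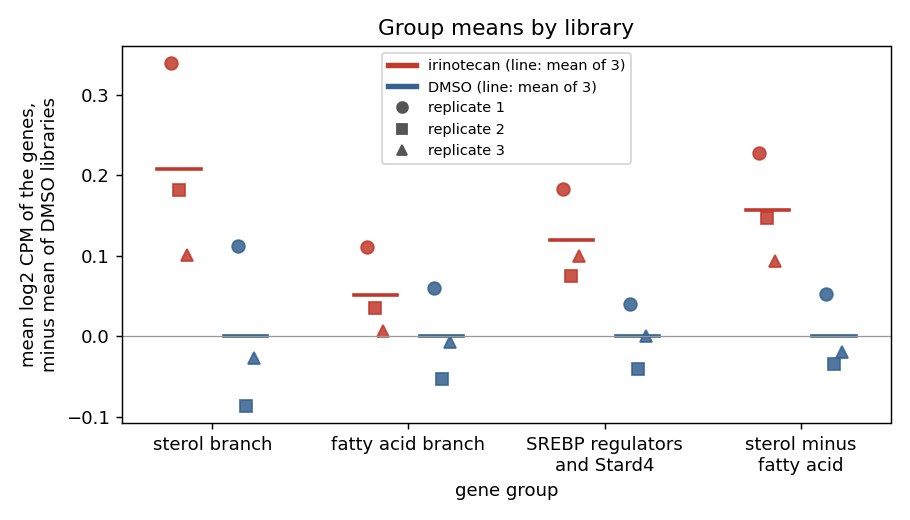
Mean log2 CPM over the genes of each branch in each library, with each gene set to 0 at its DMSO mean, irinotecan in red left of DMSO in blue, and at the far right the sterol mean minus the fatty acid mean. Lines are group means and marker shapes the replicate numbers. The irinotecan libraries lie above the DMSO libraries in the regulators, where Insig1 makes the separation, and in the difference, and the groups overlap in the sterol and fatty acid branches.

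The libraries of a group were not alike for these genes. Irinotecan 1 held the highest of the 3 irinotecan values for 29 of the 37 members (78.4%), against 34.0% of all genes tested. DMSO 2 held the lowest DMSO value for 24 members (64.9%, against 32.1% of all genes) and DMSO 1 the highest for 26 (70.3%, against 29.1%). The count of 5 sterol genes that rose was 3 without irinotecan 1 and 2 without DMSO 2. It was 2 without DMSO 3 and 9 without DMSO 1. Over all genes tested, the 1369 that were higher became 804, 983, 1211 and 1162 in these fits, in the same order. The loss of calls without irinotecan 1 was thus not particular to the sterol genes. The part of these libraries in each rise was not tested beyond that. Mitochondrial genes took 2.06% of counts in irinotecan 1, within the range of 2.01% to 2.23% in its group.

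Over all genes, 19.3% had irinotecan libraries all above DMSO libraries and 17.8% all below. Among the members, 7 of 37 were all above and 1 of 37 all below, which is near that background for the first. By branch, those all above were 5 of 19 in the sterol branch, 1 of 12 in the fatty acid branch and 1 of 6 regulators. The median of the sterol branch ranged from 0.06 without irinotecan 1 to 0.25 without irinotecan 3 over the 14 fits, that of the fatty acid branch from -0.01 without DMSO 2 to 0.05 with total counts as the scaling, and that of the regulators from 0.04 without irinotecan 1 to 0.10 with total counts.

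Genes around the pathway were read from lists of neighbouring steps. Their counts stand beside 11.8% higher and 10.3% lower over all genes tested. Of 16 genes for SREBP cleavage and for the turnover of INSIG and the reductase, 0 rose, 2 fell and 14 did not pass the test, and the median log2 fold change was -0.07. At an unadjusted p under 0.05 there were 0 higher and 6 lower, beside 3943 of all 11599 genes tested in either direction. DESeq2 and limma-voom called 0 higher. Ube2g2, a ubiquitin-conjugating enzyme of endoplasmic reticulum degradation, had 74.6 ± 7.34 CPM with irinotecan and 101.5 ± 11.1 CPM with DMSO (log2 fold change -0.44 ± 0.08, adjusted p = 0.00077). Spring1, a regulator of the SREBP protease, fell by 0.30 on the log2 scale (adjusted p = 0.013, up to 0.069 over 13 alternatives). Of 8 listed genes of oxysterol sensing and efflux 2 rose, Cyp39a1, an oxysterol hydroxylase (0.51), and Mylip, the LXR-induced ligase for lipoprotein receptors (0.32, adjusted p up to 0.062). Of 21 genes of sterol uptake, transport and storage 2 rose and 4 fell. Lipa, the lysosomal acid lipase, was 0.41 higher and Plin3, a lipid droplet protein, 0.22 higher (adjusted p up to 0.067). Gramd1b, which carries sterol from the plasma membrane, fell by 0.43, Soat1, which esterifies cholesterol, by 0.19 (adjusted p up to 0.08), and Stard5 by 0.58 (adjusted p up to 0.11).

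Around the fatty acid branch, changes lay in both directions, beside 11.8% higher and 10.3% lower over all genes tested. Of 21 genes of fatty acid oxidation 6 rose and 1 fell, and the median log2 fold change was 0.15. Cpt1a, the carnitine acyltransferase that admits fatty acids to mitochondria, had 82.3 ± 5.24 CPM with irinotecan and 56.8 ± 6.26 CPM with DMSO (0.54 ± 0.07, adjusted p = 2e-05). Acadm, a mitochondrial acyl-CoA dehydrogenase, rose by 0.21, and the receptor gene Ppard fell by 0.26. Of 19 genes of activation and glycerolipid assembly 1 rose and 2 fell. Lpin1, a phosphatidate phosphatase, had 61.8, 56.0 and 49.2 CPM with irinotecan and 33.5, 29.6 and 35.0 CPM with DMSO (0.77 ± 0.08, adjusted p = 1e-06). Dgat2, which completes triglycerides, had 29.4 ± 2.33 CPM with irinotecan and 45.9 ± 4.41 CPM with DMSO (-0.64 ± 0.08, adjusted p = 9.9e-06), and Gpat3 fell by 0.48.

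Of 15 other genes of fatty acid synthesis and elongation 2 rose and 2 fell. These counts lie near the shares over all genes tested, 11.8% higher and 10.3% lower. Acacb, the acetyl-CoA carboxylase of the mitochondrial surface, rose by 0.51 and Slc25a1, the citrate carrier, by 0.17 (adjusted p up to 0.23), while Mid1ip1, an activator of acetyl-CoA carboxylase, fell by 0.37 and Fads3 by 0.29 (adjusted p up to 0.099). Of 10 genes of NADPH supply 3 rose, Idh1 (0.35), Idh2 (0.21) and Pgd (0.17, adjusted p up to 0.29), and 2 fell, Mthfd2 (-0.19, up to 0.058) and G6pdx (-0.15, up to 0.19). Of 16 genes that use isoprenoids 1 rose, Fnta (0.15, adjusted p up to 0.18), and 5 fell, among them Rabggtb (-0.18, up to 0.07), Nus1 (-0.17, up to 0.12) and Coq2 (-0.18, up to 0.11). Of 13 genes of AMPK and mTORC1 signalling 1 rose, Lpin1, and 3 fell, Rheb (-0.24), Prkab1 (-0.20, up to 0.12) and Rptor (-0.16, up to 0.14).

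**Figure D5:**
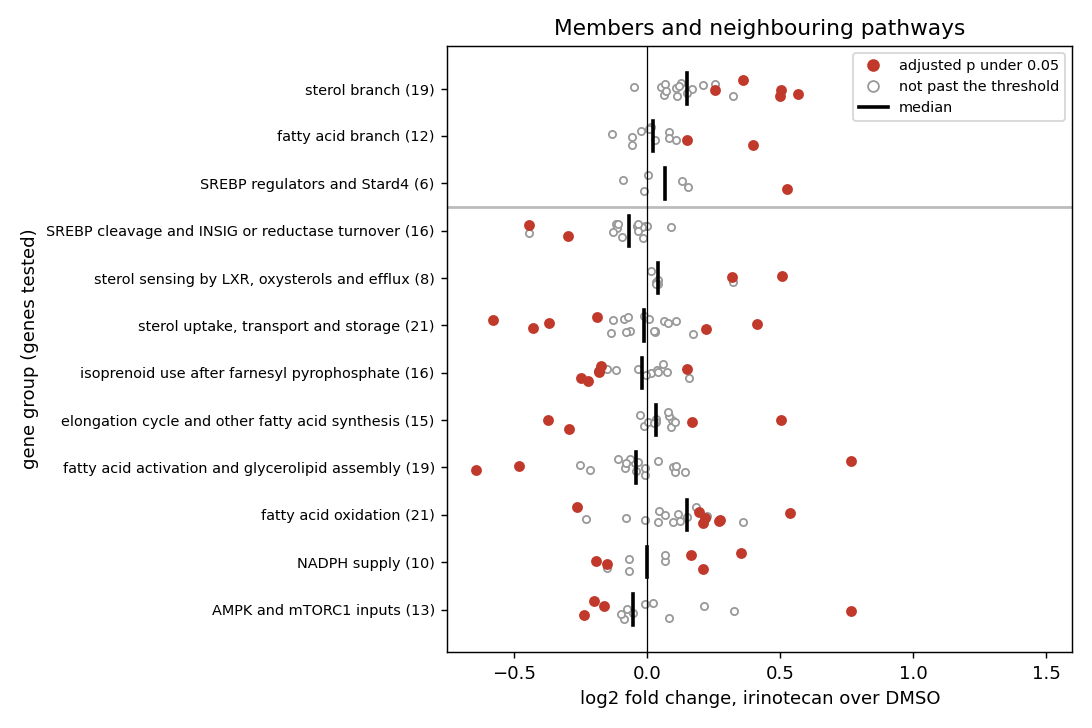
Log2 fold changes, irinotecan over DMSO, of the 3 member groups above the grey line and of 9 neighbouring gene lists below it, with the number of genes tested in brackets. Red points are genes at an adjusted p under 0.05, open points the others, and the bar is the median. Red points of the members all lie right of 0, and most of the neighbouring lists have red points on both sides.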

How the data were processed

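RNA of CT26 cells was measured in 6 libraries, 3 per group, grouped by title and treatment label. Per the submitters' processing notes, the build was GRCm39 and the tools, named without roles, were edgeR 3.24.3, DESeq2 1.22.1, StringTie 1.3.4d, featureCounts 1.6.2, HISAT2 2.1.0 and fastp 0.19.3. The sources used here give neither RNA selection nor strandedness. Per the file headers, the deposited table holds, for each gene in each library, an unnormalized count and an FPKM value, and the log2 fold change, p-value and adjusted p-value of the authors. The log2 fold changes deposited by the authors are DMSO over irinotecan (correlation -0.995 with irinotecan over DMSO from the counts). Of the 37 members, 7 passed 0.05 in the authors' deposited results, 6 of them among the 8 here. Over all genes deposited, 2232 of 11604 passed that threshold in the authors' results, a similar share. The lowest count was 1, so the table had been freed of genes at 0 before deposit.

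The test of the deposited counts ran in edgeR 4.0.16 under R 4.3.3 (filterByExpr, which left out 5 genes, TMM, robust quasi-likelihood test, Benjamini-Hochberg over 11599 genes, threshold 0.05). The biological coefficient of variation was 5.57%. The method was also run on simulated counts, drawn independently for each gene from the fitted dispersions. Such counts cannot show how it behaves with paired libraries or with shifts that genes share. CPM are TMM-normalized, log2 CPM has a prior count of 2, and FPKM were used as deposited, for levels. Standard errors divide the log2 fold change by the square root of F. Alternatives used DESeq2 1.42.0, limma 3.58.1, other scalings and filters, a replicate block and each library left out. Near-identical copies were sought with blastn 2.17.0 in GENCODE M21 transcripts (at least 97% identity over 100 bases). Gene coordinates are those of the table, and promoter windows are RefSeq's. The members and lists were chosen with earlier results of these data known. Named genes are all 37 members and, of each neighbouring list, up to 3 higher and 3 lower genes with the smallest p, except 1 that is not reported here.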

Additional observations from a re-analysis of the deposited data

How the results depend on the processing

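Over 13 alternatives, none of the members or named neighbouring genes past the threshold changed sign. Under other scalings and FPKM, the mean difference of each branch moved by less than the SD between libraries. It did so too with each library left out, which shows nothing about stability. By arithmetic, leaving out a library of 3 cannot move the group mean by as much as its SD. With Insig1 left out, an alternative chosen after seeing the data, the regulator mean was 0.039, against 0.12. Of the 8 rises, 3 passed everywhere. No pairing of replicate numbers between the 2 groups is given by the labels, and whether libraries were paired is not known. Libraries with the same number deviated together at 0.123, 0.04 and 0.085 across genes, each best with its own number. The main test used no replicate block. With a block, 1808 genes were higher and 1820 lower over all genes, against 1369 and 1190 in the main test. Then 10 sterol genes were higher, against 5, and 2 regulators were higher. In the same fit 1 fatty acid gene and 1 regulator (Srebf2) were lower. Among the lists, 6 genes of SREBP cleavage were lower, 4 of sterol uptake higher and 3 of glycerolipid assembly higher. With scaling by total counts alone the median of all genes was 0.03, and 4 genes of sterol uptake and 2 of glycerolipid assembly were higher, while 2 of isoprenoid use, 1 of NADPH supply and 1 of AMPK and mTORC1 were lower. With DESeq2 size factors or DESeq2, 1 fatty acid gene, 0 of isoprenoid use and 1 of elongation were higher, and with voom 1 fatty acid gene and 1 of elongation. With each library left out in turn, 804 to 1211 genes were higher and 589 to 1151 lower (804 and 589 without irinotecan 1, 726 lower without DMSO 2). Members that were higher numbered 2 to 9 in the sterol branch and 1 to 2 in the fatty acid branch. Lists ranged over 1 to 3 lower for SREBP cleavage, 1 to 2 higher for oxysterol sensing, 1 to 3 higher and 2 to 4 lower for sterol uptake, 0 to 1 higher and 1 to 4 lower for isoprenoid use, 1 to 2 higher and 1 to 2 lower for elongation, 3 to 7 higher for oxidation, 2 to 3 higher and 1 to 2 lower for NADPH supply, and 1 to 3 lower for AMPK and mTORC1. The cause of these shifts was not tested. With 3 libraries per group, members whose groups overlap are not shown to be unchanged.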
